A study of Homo sapiens with 6 samples.

Results

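The clustered histone genes were taken from the ChIP-seq count table as the rows named HIST1 to HIST4 followed by H1, H2A, H2B, H3 or H4, without a pseudogene suffix (P or PS with digits) and with input counts above 0. Of 56638 rows in the table, 89 carried such a name, 14 of these ended in a pseudogene suffix, and 7 others had no input counts (HIST2H2BA, HIST2H3C, HIST2H2AA3, HIST2H2AA4, HIST2H3A, HIST1H2AD and HIST1H4I), which left 68 members. They encode H1 (6 members), H2A (14), H2B (22), H3 (12) and H4 (14). By RefSeq, 64 are protein coding, and 4 are annotated pseudogenes whose old names carry no suffix (HIST2H2BB, HIST2H2BC, HIST2H2BD and HIST3H2BA). No count entered the choice apart from the presence of input reads.

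The cells were G401, a human malignant rhabdoid tumor line that lacks SMARCB1, a subunit of the SWI/SNF chromatin remodeler, and SMARCB1 had 0 input counts in both treatments. They were grown in DMEM with serum and 2-mercaptoethanol and received DMSO or 3 µM MAK683, which binds the EED subunit of PRC2, the complex that trimethylates H3K27, for 3 days. Chromatin was precipitated with antibodies to H3K4me3 or H3K27me3, or sequenced without an antibody (input), with 1 library per treatment and antibody. No difference therefore had a replicate check, no p-value was computed, and the 95% intervals below are exact Clopper-Pearson intervals that cover counting error only.

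Replication-dependent histone genes are small, mostly without introns, and lie in clusters, the largest of them HIST1 on chromosome 6. They are transcribed mainly in S phase in a nuclear compartment called the histone locus body, where NPAT, a target of cyclin E and CDK2, brings the transcription machinery to the promoters. Their mRNAs usually end in a conserved stem-loop bound by SLBP instead of a poly(A) tail. H3K4me3 marks the start regions of active genes, and H3K27me3 marks chromatin repressed by PRC2.

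The promoters below show what the members share in sequence, and they were picked to set H1 and H3 members with the highest H3K4me3 beside low ones of the same histone, with an H2B member whose promoter faces an H2A gene. RefSeq promoters (GRCh38.p14) were found for 55 of the 68 members, and each had 1 exact match in GRCh37, the build that corresponds to hg19, so the coordinates are those of GRCh37. Each line gives the 120 bases before the annotated start, 5′ to 3′ on the gene's strand. Capitals mark 3 kinds of motif, searched on both strands: the TATA box, which was taken as the letters TATAAA and positions the start of transcription in many promoters, the CCAAT box, taken as those letters, and the octamer, which is found in promoters of some histone genes and was taken as ATTTGCAT.
HIST1H1E (chr6:26156437-26156556, plus strand): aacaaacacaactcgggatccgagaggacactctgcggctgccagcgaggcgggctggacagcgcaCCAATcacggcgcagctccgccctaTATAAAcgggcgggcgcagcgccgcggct
HIST1H1A (chr6:26018016-26018135, minus strand): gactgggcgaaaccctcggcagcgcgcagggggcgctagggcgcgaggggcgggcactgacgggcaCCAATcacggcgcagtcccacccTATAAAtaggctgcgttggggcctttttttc
HIST1H1T (chr6:26108364-26108483, minus strand): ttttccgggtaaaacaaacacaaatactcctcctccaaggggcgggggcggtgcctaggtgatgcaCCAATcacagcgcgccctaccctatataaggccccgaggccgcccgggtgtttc
HIST1H3G (chr6:26271642-26271761, minus strand): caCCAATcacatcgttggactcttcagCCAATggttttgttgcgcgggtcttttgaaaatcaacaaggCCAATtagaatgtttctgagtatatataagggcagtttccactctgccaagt
HIST3H3 (chr1:228613062-228613181, minus strand): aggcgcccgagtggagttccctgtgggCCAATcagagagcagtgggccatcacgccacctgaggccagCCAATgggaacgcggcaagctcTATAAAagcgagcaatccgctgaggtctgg
HIST1H2BJ (chr6:27100575-27100694, minus strand): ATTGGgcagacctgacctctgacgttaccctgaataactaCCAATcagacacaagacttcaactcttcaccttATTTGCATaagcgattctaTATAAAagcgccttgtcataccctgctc

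The 3 H1 promoters carried a CCAAT box at about the same distance from the start, although HIST1H1E had the highest H3K4me3 over input among members with 20 or more input counts and HIST1H1A and HIST1H1T were among the lowest. In the 250 bases before the start, the CCAAT box stood in 45 of the 55 member promoters (81.8%), the TATA box in 36 (65.5%) and the octamer in 23 (41.8%). Over all 35116 promoters of the table, the shares were 32.0%, 10.7% and 1.63%. The octamer, which binds the POU factor OCT1, occurred in 10 of 13 H2A and 13 of 16 H2B promoters and in none of the 6 H1, 8 H3 and 12 H4 promoters. The CCAAT box occurred in every H1, H2A, H2B and H3 promoter searched, but in 2 of 12 H4 promoters. H2A and H2B genes that face each other share much of their upstream sequence, so these counts are not independent. Each motif was counted on its own, also where matches overlapped, and a match describes letters only.

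The stem-loop was searched in GRCh37 as 6 paired bases on each side of a 4-base loop that begins with TTT, starting with GG. The search ran from 2000 bases before the annotated 3′ end to 150 bases past it. It was found in 44 of 64 members with GRCh37 coordinates. Long annotated spans were searched only in part, as in HIST1H2AC (14972 bases) and HIST1H2BN (17165 bases), which gave no match. Short members searched over their whole span, such as HIST1H2AG (493 bases) and HIST1H2BI (482 bases), also gave no match. The search required all 6 bases to pair and a loop that begins with TTT, so variants were missed. A member without a match was therefore not shown to lack a stem-loop. The sequences are shown because the stem sets the H4 members with a match apart from the others. It does not divide H1, H2A, H2B and H3, whose members with a match share the same stem. The loop is in capitals, and the example named first in each line gives the position.
HIST1H1E and 28 other members (chr6:26157323-26157338, plus strand): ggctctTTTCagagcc
HIST1H4E and 6 other H4 members (chr6:26205229-26205244, plus strand): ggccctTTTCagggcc
HIST1H1T and 5 other members (chr6:26107645-26107660, minus strand): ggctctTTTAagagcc
HIST1H4K (chr6:27798956-27798971, minus strand): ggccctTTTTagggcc
HIST2H2AC (chr1:149858941-149858956, plus strand): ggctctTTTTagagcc
The stem of the H4 lines occurred in 8 members, each of them an H4 gene. The third form was shared by HIST1H1A, HIST1H1T and HIST3H3, which had low H3K4me3, and by HIST1H3G, HIST2H2AB and HIST1H2BK, which had high H3K4me3.

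The libraries held between 13308099 and 21281877 counts, and 3 counts, the limit that a count of 0 allows, corresponded to between 0.141 and 0.225 CPM (counts scaled to the library total). The members took 0.0984% of all H3K4me3 counts with DMSO and 0.0800% with MAK683, against 0.00935% and 0.00973% of the input counts. They took 0.00470% and 0.00498% of the H3K27me3 counts. Values over input are ratios of CPM, which cancels gene length, and log2 ratios of single genes add 0.05 CPM to both sides. They were read only for genes with 20 or more input counts over both treatments, which 32 of the 68 members reached, since the median member had 8.0 input counts with DMSO and 11.0 with MAK683. The members that passed include all 13 with over 60 input counts, so sums over all 68 are given beside them. Input counts did not follow the annotated length: HIST1H2BK, 495 bases long in GENCODE, had over 60 input counts, and HIST2H2BF, 29684 bases long, had 9 in both inputs together.

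In DMSO, H3K4me3 was far above input at most clustered histone genes. Of the 32 members with enough input counts, 27 had at least 2 times the input, against 22.3% of the 29528 genes that passed the same limit, and their median log2 ratio over input was 3.82 (rank interval 2.53 to 4.29), against -0.31 for all genes. Summed over all 68 members, there were 20952 H3K4me3 counts and 1574 input counts, a ratio of 10.5 (10.0 to 11.1). The 55 members with 60 or fewer input counts in both inputs together gave a ratio of 20.6 (18.7 to 22.9), and the other 13 gave 7.08 (6.66 to 7.53). Among all genes with 20 to 60 input counts, 14.3% had at least 2 times the input.

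Counting each member by its own exact interval, 55 of 68 lay above input in DMSO, against 28.1% of the 37470 genes with any input count. Of the other 13, 2 lay below input (HIST1H1T and HIST3H3) and 11 had an interval that included input. These 11 were HIST1H1A, HIST1H2AA, HIST1H2AM, HIST1H2BA, HIST1H2BL, HIST2H2BB, HIST1H3I, HIST1H4G, HIST1H4L, HIST2H4A and HIST2H4B. The last 2 encode H4 from near-identical copies and had 2 and 0 H3K4me3 counts, and reads that match both copies cannot be placed, so their values say little. HIST1H2AM is overlapped by HIST1H3J and had 3 input counts in all. The motifs also stood before low members: of the 11 promoters of members not above input, 8 had a TATA box, 8 a CCAAT box and 3 the octamer. Of the 44 promoters of members above it, 28, 37 and 20 did.

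**Figure D1:**
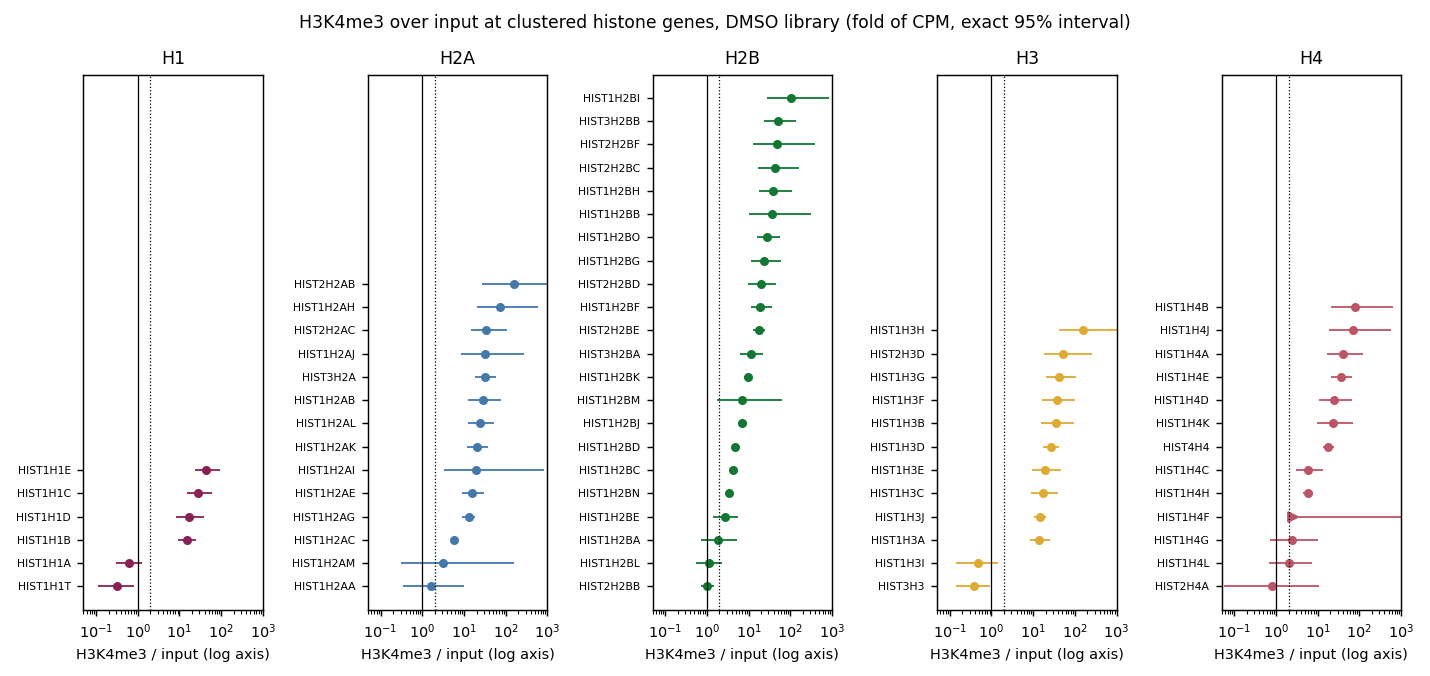
H3K4me3 over input (fold of CPM, log axis) in the DMSO libraries for each member with a count in either library, by encoded histone; points are ratios, lines are exact 95% intervals cut at the axis ends, the solid line is input and the dotted line 2 times input. HIST1H4F, with 0 input counts in DMSO, is drawn as a triangle at the lower end of its interval, and HIST1H1T, HIST1H1A, HIST3H3, HIST1H3I and HIST2H4A lie left of the input line.

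H1 is the linker histone, and its members covered the widest range. HIST1H1E had 552 H3K4me3 counts with DMSO and 423 with MAK683 on 10 and 11 input counts, HIST1H1C had 361 and 306 on 10 and 20, and HIST1H1B had 337 and 246 on 18 and 21. HIST1H1D had 168 and 148 on 8 and 14. HIST1H1A, a somatic H1 gene that many cell types do not use, had 16 and 15 H3K4me3 counts on 20 and 19 input counts, and HIST1H1T, the testis H1, had 7 and 12 on 17 and 14. The first 4 thus stood at log2 3.83 to 5.33 over input in DMSO, and HIST1H1A and HIST1H1T at -0.63 and -1.48, with no member in between. Summed over the 6 H1 members, H3K4me3 was 13.7 times input (11.0 to 17.4).

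H2A and H2B form the dimers on either side of the nucleosome, and their genes often face each other. Summed over members, H2A stood at 11.0 times input (9.82 to 12.3) and H2B at 7.41 (6.90 to 7.96), the lowest of the 5 histones. The H2B members include several with many input counts, HIST1H2BN, HIST1H2BD and HIST1H2BC with 209, 155 and 114 in DMSO, and the part of this in the order was not tested. HIST1H2BN had 899 H3K4me3 counts with DMSO and 694 with MAK683, HIST1H2BD had 945 and 641, and HIST1H2BC had 596 and 449. HIST1H2AC, the member with the most H3K4me3 counts, had 1657 and 1267 on 224 and 181 input counts. The highest H2A value with enough input counts was that of HIST3H2A, with 514 and 282 H3K4me3 counts on 13 and 13 input counts. All 6 members known to give polyadenylated RNA as well (HIST1H1C, HIST1H2AC, HIST1H2BD, HIST1H2BJ, HIST1H2BK and HIST2H2BE) had at least 2 times the input, with a summed ratio of 7.48 (6.87 to 8.15), against 12.4 (11.6 to 13.3) for the other 62 members. These 6 members held 599 of the 1574 input counts in DMSO, and the part of this in their lower ratio was not tested.

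Among the 64 members with GRCh37 coordinates, a member on the minus strand and 1 on the plus strand faced each other within 500 bases in 11 pairs. HIST1H2BO was in 2 of these pairs, with HIST1H2AM and with HIST1H3J, which overlap. HIST1H2BG lacked gene coordinates, but its promoter overlaps that of HIST1H2AE on the other strand. These 2 genes, with 207 and 258 H3K4me3 counts in DMSO, were not counted as a pair. In the pair HIST1H2BJ and HIST1H2AG, whose shared promoter is shown above, 247 bases separated the starts, and H3K4me3 counts in DMSO were 761 and 586. HIST1H2BK and HIST1H2AH, 250 bases apart, had 1063 and 186 counts. HIST2H2BE and HIST2H2AC, 235 bases apart, had 874 and 218, and HIST3H2A and HIST3H2BB, 229 bases apart, had 514 and 389. Over input, the order within each of these pairs turned. HIST1H2BK stood at 9.78 times input on 86 input counts and HIST1H2AH at 73.6 on 2. HIST1H2BJ stood at 7.08 and HIST1H2AG at 12.9, HIST2H2BE at 17.7 and HIST2H2AC at 34.5, and HIST3H2A at 31.3 and HIST3H2BB at 51.3. The intervals of the HIST2 pair overlapped, as did those of the HIST3 pair. HIST1H2BC and HIST1H2AC, 218 bases apart, had 596 and 1657 counts and kept their order, at 4.14 and 5.85 times input. HIST1H2AK and HIST1H2BN (365 and 899 counts) turned, at 20.6 and 3.40 times input. HIST1H3J and HIST1H2BO (669 and 394 counts) also turned, at 14.3 and 28.3. The intervals overlapped for HIST1H2BC and HIST1H2AC and for HIST1H3J and HIST1H2BO. The rest of the 11 pairs had few counts on at least 1 side. HIST1H2AA and HIST1H2BA, known from testis and 214 bases apart, had 6 and 16 counts, and HIST1H2BL and HIST1H2AI, 243 bases apart, had 21 and 25. HIST1H2AJ and HIST1H2BM, 244 bases apart, had 81 and 18, and HIST1H2AM and HIST1H2BO, 239 bases apart, had 4 and 394. In DMSO, HIST1H2AI, HIST1H2AJ, HIST1H2BM and HIST1H2BO were above input by their intervals. HIST1H2AI was so on 1 input count, and in MAK683 its interval included input (0.679 to 4.29). In these pairs with few counts, the order over input was that of the counts.

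H3 and H4 form the tetramer at the core of the nucleosome, and H3 carries the lysines that both antibodies recognise in modified form. Summed H3K4me3 of the H3 members was between 16.9 and 23.8 times input by its exact interval, and that of the H4 members was 16.0 times input (13.7 to 18.8). HIST1H3G had 370 H3K4me3 counts with DMSO and 227 with MAK683 on 7 and 17 input counts, and HIST1H4E had 638 and 477 on 14 and 16. HIST1H3H had 388 and 271 on 2 and 8, too few input counts for a firm ratio. At the low end, HIST3H3, the testis H3, had 8 and 22 H3K4me3 counts on 17 and 21 input counts, and HIST1H3I, next to HIST1H4L in the cluster, had 6 and 10 on 10 and 10. HIST1H4L had 13 and 15 on 5 and 11, and HIST1H4G had 12 and 13 on 4 and 8. HIST3H3 was thus below input, and the intervals of HIST1H3I, HIST1H4L and HIST1H4G included it, while the H3 and H4 members as groups stood far above it.

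The HIST1 members on chromosome 6 fell into 4 stretches that lie over 200 kb apart. The main stretch of 31 members (chr6:26017260-26285866) stood at 10.2 times input (9.44 to 10.9), the 4 members of the next (chr6:27093676-27115341) at 9.83 (8.53 to 11.4), and the 16 of the last (chr6:27775257-27861669) at 8.80 (7.88 to 9.86). The first stretch, with HIST1H2AA and HIST1H2BA alone (chr6:25723625-25727573), stood at 1.74 (0.79 to 4.12). On chromosome 1, the 9 neighbouring HIST2 members (chr1:149754245-149859515) stood at 25.1 (19.5 to 32.7) and the 4 HIST3 members (chr1:228612546-228652295) at 17.9 (13.4 to 24.4). HIST4H4, alone on chromosome 12 (chr12:14920933-14924065), had 1159 H3K4me3 counts with DMSO and 937 with MAK683 on 51 and 53 input counts, 18.0 times input (13.6 to 24.3). All 4 clusters thus held members far above input.

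In the HIST2 cluster, HIST2H2BE (874 and 656 H3K4me3 counts on 39 and 45 input counts) was the only one of the 9 neighbours with enough input counts. HIST2H2AB had 195 and 140 on 1 and 10, HIST2H3D had 201 and 160 on 3 and 4, and HIST2H2BF had 120 and 88 on 2 and 7. The annotated pseudogenes HIST2H2BC and HIST2H2BD had 218 and 180 and 199 and 124 H3K4me3 counts. HIST3H2BA, a pseudogene in the HIST3 cluster, had 174 and 149 on 12 and 16, 11.5 times input (6.40 to 22.6). Pseudogene status by annotation therefore did not go with low H3K4me3 at these 3, whereas HIST2H2BB, which lies apart from the other HIST2 members, had 72 and 61 on 56 and 57, 1.02 times input (0.71 to 1.47).

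Against other genes, the members resembled constitutively active ones in H3K4me3. Of the 83 ribosomal protein genes, 73 passed the input limit with a median log2 ratio over input of 3.98 in DMSO, and 10 of the 11 genes for replication-independent histones, which are not tied to S phase, passed the input limit with a median of 3.44. The 402 olfactory receptor genes, which like histone genes have a short coding exon but are silent outside the olfactory epithelium, had a median of -0.73, and 3 of their 275 with enough input counts were at least 2 times above it. These lists differ from the members in length, and the medians are descriptions.

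Summed over the clustered histone genes, H3K27me3 was below input before any inhibitor was given. Of the 32 members with enough input counts, 21 had at most 1/2 of the input in DMSO, against 27.7% of all genes that passed the limit, and their median log2 ratio was -1.34 (-1.73 to -0.96), against -0.66 for all genes. Counts this small make both values depend on the pseudocount: with 0.5 and 1 CPM added, 11 and 4 members had at most 1/2 of the input, against 20.5% and 15.5% of all genes, and the medians were -0.88 and -0.61, against -0.57 and -0.49 for all genes, which lay inside the members' rank intervals. With median-of-ratios scaling it was 10 members, against 3.98% of all genes. One member was at least 2 times above input, against 12.6% of all genes. Summed over 68 members, there were 900 H3K27me3 counts, 0.502 times input (0.462 to 0.546). Counted by exact intervals, 27 of 68 members lay below input, against 44.1% of the 37470 genes with input counts and 2 lay above, HIST2H2BB and HIST1H4F, against 20.4%. At this depth, the share of members below input did not exceed that of genes at large. Active genes were also low: the ribosomal protein genes had a median of -1.20, and the olfactory receptor genes 0.17.

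The lowest members with enough input counts were HIST1H3G, with 0 H3K27me3 counts in both treatments on 7 and 17 input counts, and HIST1H2AK, with 1 and 0 on 14 and 10, followed at the same value by HIST1H2AE, with 2 and 1 on 13 and 17, and HIST3H2A, with 2 and 4 on 13 and 13. The highest was HIST2H2BB, with 154 H3K27me3 counts with DMSO and 59 with MAK683 on 56 and 57 input counts. It was followed by HIST1H2AJ (4 and 5 on 2 and 19) and HIST1H1D (11 and 7 on 8 and 14), whose counts are too few to set them apart from input. HIST2H2BB alone held 154 of the 900 H3K27me3 counts, and without it the other 67 members stood at 0.432 times input (0.395 to 0.472). It was also the highest-input member without H3K4me3 above input.

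Members with low H3K4me3 varied in H3K27me3. Of the 13 members not above input in H3K4me3, HIST2H2BB was above input in H3K27me3 in DMSO, HIST1H2BL and HIST3H3 were below it at 0.293 (0.0833 to 0.848) and 0.310 times input (upper limit 0.824), and the intervals of the others with counts included it, HIST1H1A at 0.483 (0.209 to 1.06). The 4 members known from testis (HIST1H1T, HIST1H2AA, HIST1H2BA and HIST3H3) together had 50 H3K27me3 counts on 44 input counts in DMSO, 0.998 times input (0.652 to 1.53), and 26 on 56 in MAK683, 0.681 times (0.410 to 1.10). HIST1H2BA had 19 H3K27me3 counts with DMSO and 5 with MAK683, and HIST1H2AA had 10 and 10. As a stretch, the pair of HIST1H2AA and HIST1H2BA stood at 2.55 times input (1.21 to 5.86) in DMSO and 1.05 (0.502 to 2.13) in MAK683. HIST1H1T had 15 and 7 counts and HIST3H3 had 6 and 4. HIST1H4F and HIST1H4G, both with little H3K4me3, carried 10 and 8 H3K27me3 counts with DMSO against 1 and 0 with MAK683, on input counts of 0 and 4 and of 9 and 8. These counts are small, and the members were singled out after their values were seen.

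**Figure D2:**
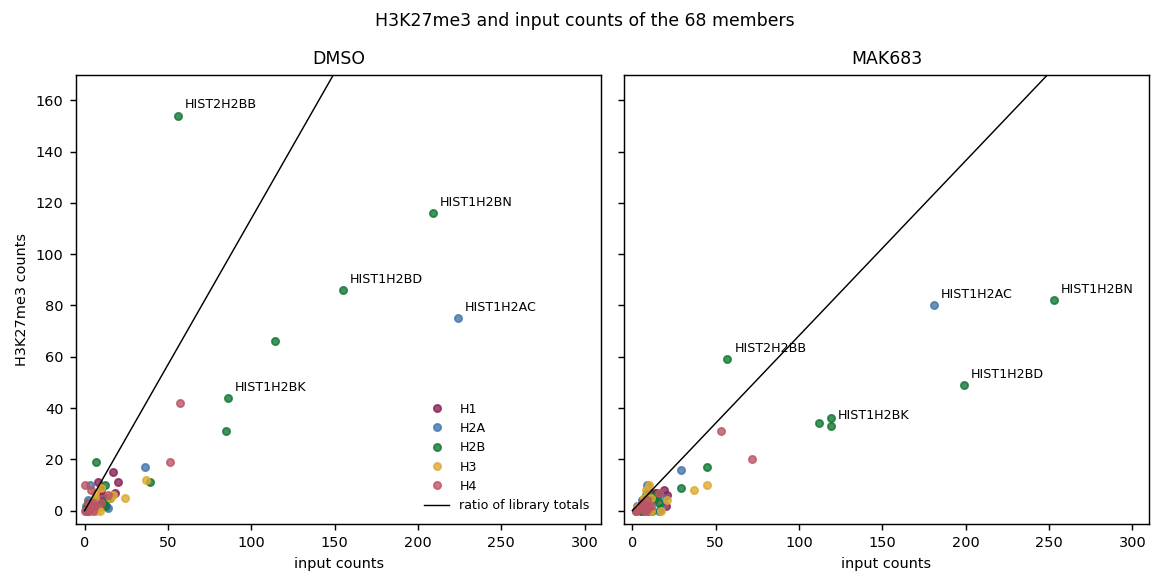
H3K27me3 counts against input counts for the 68 members in DMSO (left) and MAK683 (right), colored by encoded histone; the line is the ratio of the library totals, on which H3K27me3 equals input. HIST2H2BB lies above the line in both panels, at 154 and 59 H3K27me3 counts, and the other members with over 60 input counts lie below it.

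After MAK683, the summed ratio of H3K4me3 over input was lower than with DMSO. Of 32 members, 26 had at least 2 times the input in MAK683, against 21.2% of all genes, with a median log2 ratio of 3.14 against -0.19. By exact intervals, 54 of 68 lay above input, against 28.8% of genes with input counts. HIST1H2AI, HIST1H2BE and HIST1H4F were above it only with DMSO, and HIST1H2AM and HIST1H2BL only with MAK683. The summed ratio was 8.22 (7.84 to 8.63).

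Between the 2 H3K4me3 libraries, most members had a smaller share of counts in MAK683. The changes are log2 ratios of CPM, MAK683 over DMSO, for genes with 10 or more counts in either library, which 66 members reached. Their median was -0.26 (-0.33 to -0.19), and 54 of the 66 were below 0, against 49.6% of the 30028 genes read. None of the members was at least 2-fold lower, against 1.84% of all genes, and 2 were at least 2-fold higher (HIST3H3 at 1.46 and HIST1H2AM at 1.23), against 4.1%. Both reached 10 counts only in MAK683 (8 and 22 counts, 4 and 10 counts). The minimum itself lets in such values, so these 2 are not read as gains. With 0.5 or 1 CPM added, 0 were at least 2-fold higher. Taken over input, the median was -0.50, against 0.01 for all genes, with 15 members at least 2-fold lower and 4 higher, on few input counts. Summed over the 68 members, 20952 counts stood against 15701, so that 42.8% (42.3 to 43.3) of their H3K4me3 counts came from MAK683, where a gene that followed the library total would have 48.0%. For 33 members the interval of this share lay below 48.0%, against 17.4% of the 37470 genes with input counts, and for 2, HIST3H3 and HIST1H2AJ, it lay above, against 16.1%. On 1 library each, a difference in the cells and a difference between chromatin preparations cannot be told apart.

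A lower share in MAK683 was not particular to histone genes. All genes with enough input counts were divided by their H3K4me3 over input, both treatments pooled, and the summed share in MAK683 was smaller in each higher class. It was 47.0% for genes at a log2 ratio of 0 to 1, 45.5% at 1 to 2, 44.8% at 2 to 3, 44.3% at 3 to 4 and 43.0% (42.9 to 43.1) for the 469 genes at 4 and above. In this top class the median log2 change was -0.28, 452 of the 469 genes were below 0, and the interval of the share lay below 48.0% for 378 and above it for 6. The members were set beside genes of their own class. At a log2 ratio of 4 and above, 9 members had a share of 42.5% (41.4 to 43.5), an interval that included the class. At 3 to 4, 10 members had 42.6% (41.6 to 43.7), below the 44.3% of the class. At 2 to 3, 5 members had 44.1% (42.9 to 45.3), which included the class, and at 1 to 2, 3 members had 41.9% (40.2 to 43.7), below it. All 68 members together had 42.8% (42.3 to 43.3), below the class of 3 to 4 that holds their summed level. Their interval included the 43.0% of the top class. This sum mixes members of several classes, so it cannot be set against 1 class alone. The 55 members with 60 or fewer input counts had 42.6% (41.9 to 43.4) and the other 13 had 43.0% (42.3 to 43.8). The ribosomal protein genes had 44.4% (44.2 to 44.7) and the replication-independent histone genes 43.3% (42.6 to 43.9). The spike-in that the study describes is not carried by these counts, so a change of H3K4me3 at all genes together could not be seen.

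**Figure D3:**
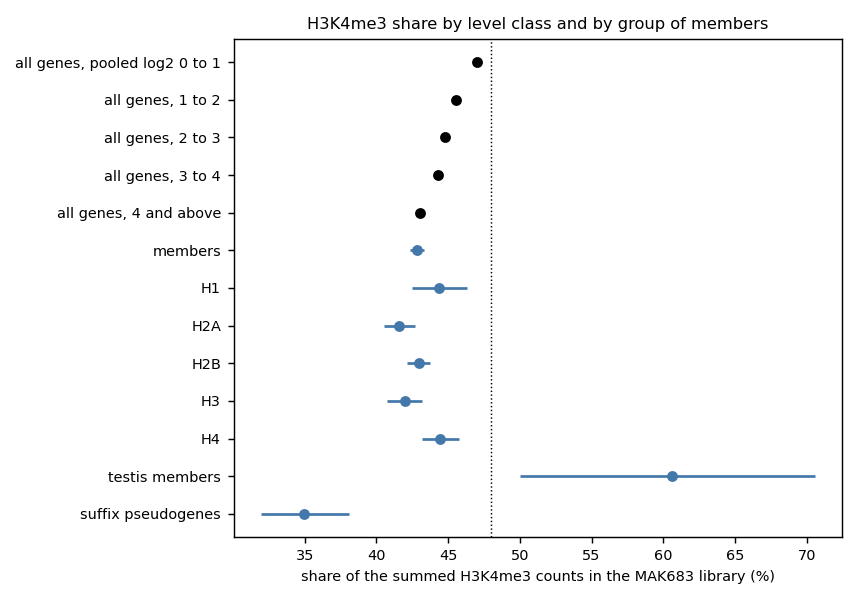
Share of the summed H3K4me3 counts that came from the MAK683 library (percent, points) with exact 95% intervals (lines) for all genes by class of pooled log2 H3K4me3 over input (black) and for groups of histone genes (blue); the dotted line is the share of the whole library, 48.0%. The members of all classes together, at 42.8%, lie left of the class at 3 to 4, at 44.3%, and beside the class at 4 and above, at 43.0%. The testis members lie to the right of the dotted line at 60.6% and the suffix pseudogenes to the left at 35.0%.

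By histone, the shares in MAK683 were 44.4% (42.5 to 46.3) for H1, 41.6% (40.5 to 42.7) for H2A, 43.0% (42.1 to 43.8) for H2B, 42.0% (40.7 to 43.2) for H3 and 44.5% (43.2 to 45.7) for H4. The intervals of H2A and H4 did not overlap, and those of every other pair of histones did. They cover counting error of summed counts and not the spread between members. HIST3H2A, with 514 and 282 of the 4583 and 3264 H2A counts, had the lowest share of the H2A members, 35.4%, and its part in this was not tested.

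The 5 most negative log2 changes among the 62 members with 20 or more H3K4me3 counts in all were those of HIST3H2A (514 and 282 counts, -0.75), HIST1H2AE (258 and 152, -0.64), HIST1H2BG (207 and 124, -0.62), HIST1H2AI (25 and 15, -0.59) and HIST1H3G (370 and 227, -0.59). HIST3H2A had a share in MAK683 of 35.4% (32.1 to 38.9) and its head-to-head partner HIST3H2BB 40.5% (36.7 to 44.4). The 5 most positive were those of HIST3H3 (8 and 22, 1.46), HIST1H2BM (18 and 26, 0.62), HIST1H2AJ (81 and 104, 0.47), HIST1H4L (13 and 15, 0.30) and HIST1H4G (12 and 13, 0.21). Apart from HIST1H2AJ, these had few counts. Of the 12 members above 0, only HIST1H2AJ and HIST1H3F (278 and 262, 0.03) had over 30 counts in either library.

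HIST1H2AJ and HIST1H2BM form a head-to-head pair, and both had more H3K4me3 counts in MAK683, 99 together in DMSO and 130 in MAK683, a share of 56.8% (50.1 to 63.3). Their input counts were 4 together in DMSO and 26 in MAK683, a larger relative difference than that of H3K4me3, and over input the pair stood at 19.6 (7.41 to 73.3) and 4.97 (3.24 to 7.89). The direction at this pair thus turned when input was taken into account. The testis members together had 37 and 57 H3K4me3 counts, a share of 60.6% (50.0 to 70.6). They stood at 0.665 (0.418 to 1.05) and 1.01 (0.687 to 1.49) times input, and these intervals overlapped and both included input. Most of the added counts were those of HIST3H3. The olfactory receptor genes, also at or below input, had a share of 50.6% (49.9 to 51.3).

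**Figure D4:**
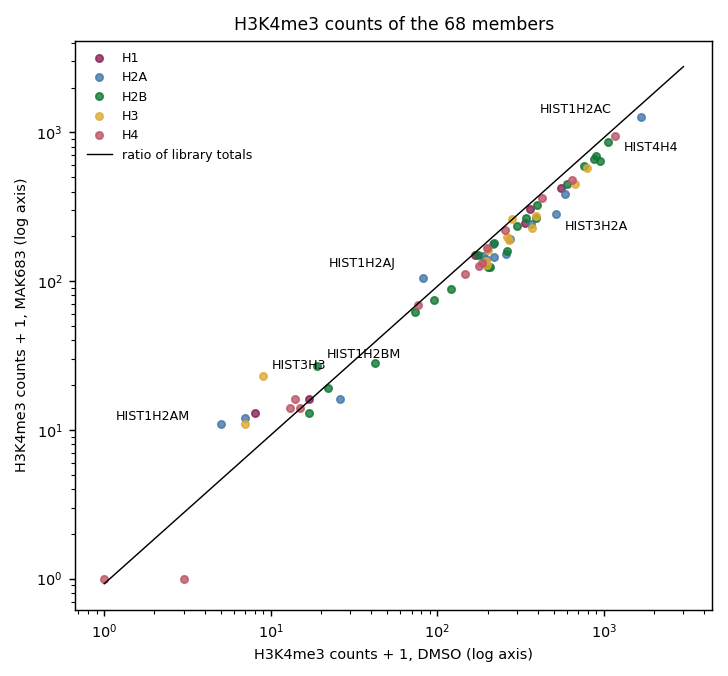
H3K4me3 counts plus 1 in MAK683 against DMSO for the 68 members (log axes), colored by encoded histone; the line is the ratio of the library totals. Most members with over 100 counts lie just below the line, HIST3H2A farthest at 514 and 282 counts, and HIST1H2AJ, at 81 and 104, lies above it.

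The 14 rows with a pseudogene suffix, which are not members, gave the lowest share of the groups compared. Together they had 632 H3K4me3 counts with DMSO and 340 with MAK683, a share of 35.0% (32.0 to 38.1). Of these counts, HIST1H2APS4 held 239 and 119, HIST1H3PS1 216 and 100, and HIST1H1PS1 118 and 55. HFE, an iron-metabolism gene inside the main HIST1 stretch, had 548 and 345, a log2 change of -0.55. The 31 members of that stretch had a summed share of 42.9% (42.1 to 43.6).

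Summed over all members, the share of H3K27me3 in MAK683 had an interval that included that of the library, but not without HIST2H2BB. The study reports a massive loss of H3K27me3 across the genome after MAK683, and these counts do not carry its spike-in. Each H3K27me3 change here and below is therefore relative to the library. It does not show whether the amount at a gene was kept, rose or fell. In MAK683, 19 of 32 members had at most 1/2 of the input, against 13.2% of all genes, and the summed ratio was 0.512 (0.468 to 0.560), against 0.502 in DMSO. Of the summed H3K27me3 counts, 900 and 663, 42.4% (40.0 to 44.9) came from MAK683, where the library had 41.0%. Only 20 members reached 10 counts in either H3K27me3 library. Their median log2 change was 0.04 (-0.53 to 0.49), 3 were at least 2-fold lower, against 3.27% of all genes, and 2 were at least 2-fold higher, against 3.87%. The 3 lower were HIST1H4F (10 and 1 counts), HIST3H2BA (10 and 3) and HIST1H2BA (19 and 5), which reached 10 counts only in DMSO. The minimum itself lets in such values, so their number is not read as an excess of losses. With a median of 3.5 counts per member in DMSO and 4.0 in MAK683, a change at most single members was not detectable at this depth.

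HIST2H2BB gave the clearest single difference, with a share of 27.7% (21.8 to 34.2) in MAK683 and a log2 change of -0.85, while its H3K4me3 share was 45.9% (37.2 to 54.7). HIST1H2BA had 19 and 5 counts (-1.29), HIST1H1T 15 and 7 (-0.53), HIST1H4H 42 and 20 (-0.53) and HIST1H2BC 66 and 34 (-0.42). On the other side stood HIST4H4 with 19 and 31 (1.19), HIST2H2BE with 11 and 17 (1.09), HIST1H2BJ with 31 and 36 (0.72), HIST1H2AC with 75 and 80 (0.61) and HIST1H2AA with 10 and 10 (0.49). HIST4H4 was at 0.327 times input (0.183 to 0.564) in DMSO and 0.858 (0.532 to 1.36) in MAK683, so that its higher share left it at or below input. For 2 members the interval of the share lay below 41.0% (HIST2H2BB and HIST1H4G), against 11.1% of the genes with input counts, and for 5 above it (HIST1H3C, HIST1H2AC, HIST1H2BJ, HIST1H3H and HIST4H4), against 18.7%, so that neither count exceeded the background. Without HIST2H2BB, the share of the other members was 44.7% (42.1 to 47.4), above that of the library. The ribosomal protein genes, at 44.1% (43.1 to 45.1), were also above it.

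Most genes that act on the histone genes also had a smaller H3K4me3 share in MAK683, as did most other genes with H3K4me3. Below 0 were 49.6% of the 30028 genes read. At a pooled log2 ratio over input of 1 to 2 it was 2586 of 3190 genes, and at 2 to 3 it was 1551 of 1786. Of all genes, 1.84% were at least 2-fold lower and 4.1% higher. All 10 listed genes of the histone locus body and histone mRNA processing had H3K4me3 changes below 0 and none was past 2-fold, with NPAT at 1094 and 964 counts (-0.07), SLBP, which binds the stem-loop, at 1560 and 1168 (-0.30) and LSM11, a subunit of the U7 particle that cuts histone pre-mRNA, at 931 and 808 (-0.09). Of the 9 listed promoter and cell-cycle factors, 8 had enough counts and all 8 were below 0, with POU2F1, which encodes OCT1, at 3455 and 2877 (-0.15), HINFP, a regulator of H4 genes, at 931 and 735 (-0.22) and CCNE2, a cyclin E gene, at 1112 and 814 (-0.33). Of 10 histone chaperone genes, 8 had enough counts and 6 were below 0, while CHAF1B and HIRA, at 0.06 and 0.07, were not, with ASF1B at 1194 and 871 (-0.34) and NPM1 at 2235 and 1717 (-0.26). CDK2, ASF1A and HAT1 were listed at 0 in all 6 libraries. All 11 replication-independent histone genes were below 0, from H2AFY2, which encodes a macroH2A, at 1528 and 1391 (-0.02) to H2AFZ, which encodes H2A.Z, at 717 and 384 (-0.78). None of the genes in these 4 lists was at least 2 times above input in H3K27me3 in DMSO, and none with 10 or more H3K27me3 counts in either library was past 2-fold between treatments. H2AFX, with 4 and 8 counts, was (1.33).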

How the data were processed

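H3K27me3, H3K4me3 and input libraries of G401 cells were analysed, 1 per treatment. The authors deposited whole-number read counts per gene, which the submitters' processing notes credit to Trim Galore 0.4.4, Bowtie2, Picard 2.23.6, deepTools 3.4.3 and featureCounts on hg19. The annotation, and which stretch of each gene was counted, are not given in the sources used here. The study's methods describe scaling by a Drosophila spike-in, but the counts do not carry it, so each value is relative to its library. Of 56638 rows, 33872 matched GENCODE release 44 on GRCh37 by symbol and 1842 by an older symbol in RefSeq. Its gene spans need not be those counted.

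CPM, log2 ratios with 0.05 CPM added, medians with binomial rank intervals and exact Clopper-Pearson intervals were computed (Python 3.11.15, pandas 2.3.3, scipy 1.17.1, numpy 2.4.6, matplotlib 3.10.9) and tested on simulated counts. Library totals ran from 13308099 to 21281877 counts. The members and lists were chosen with earlier results of these data known. Every member could be named, with full values for the extremes of each comparison, all H1, HIST2, HIST3 and HIST4 members and the lists. Alternatives were other pseudocounts, scalings, minimum counts, thresholds and subsets of members.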

Additional observations from a re-analysis of the deposited data

How the results depend on the processing

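Without replicates, values moved when they left the interval of the reported value or when a count differed by over 1.5 times. No median whose interval excluded 0 changed sign, and 83 of 118 alternative values did not move. H3K4me3 over input: at least 2 times the input was reached by 57 of 68 members without a minimum and by 12 of 13 with at least 50 input counts, the numbers read being different. H3K27me3 over input: the median log2 was -0.88, -0.61 and -0.79 with 0.5 CPM, 1 CPM and median-of-ratios scaling, against -0.57, -0.49 and -0.04 for all genes, and 11, 4 and 10 of 32 members were then at most 1/2 of input. Without a minimum it was 40 of 68, and with at least 50 input counts 10 of 13. H3K4me3 change: the median was -0.38 on counts as deposited and -0.50 over input, where 15 members were at least 2-fold lower and 4 higher, on few input counts. Members at least 2-fold higher were 0 with 0.5 or 1 CPM or with at least 50 counts and 1 without overlapped or without testis members, and 1 was at least 2-fold lower without a minimum. H3K27me3 change: the median, 0.04 with an interval that included 0, was -0.05 with median-of-ratios scaling, -0.46 on counts as deposited, -0.28 with at least 50 counts and -0.11 over input, with 11, 14, 3 and 12 members below 0. With 0.5 or 1 CPM and with at least 50 counts, 0 members were past 2-fold in either direction, and 3 of 5 were then below 0 with at least 50 counts. Median-of-ratios scaling left 1 at least 2-fold higher. Counts as deposited, with a pseudocount of 1 and no scaling for library size, gave 6 lower, 0 higher and 14 below 0. Without a minimum it was 16 lower, 19 higher and 26 below 0 of 64, and without overlapped members 4 of 14 were below 0. The exclusion of HIST2H2BB and the restriction to members with 60 or fewer input counts were chosen after seeing the data. Depth limits H3K27me3 most.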
